A study of Mus musculus with 4 samples.

Results

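The genes described here are the recombination machinery of antigen receptor genes: Rag1, Rag2, Dntt, Dclre1c, Prkdc, Xrcc5, Xrcc6, Lig4 and Xrcc4. They were chosen by name, for their known roles in V(D)J recombination, and are 9 of the 31053 genes counted in each of 4 single-cell libraries of mouse thymocytes. All 9 were detected in every library.

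The libraries came from FVB/N mice: a 6 week old wild type mouse (WT), a 6 week old preleukemic Tal1/Lmo2 mouse, and 2 leukemic Tal1/Lmo2 mice aged 3 months, T-ALL#1 and then T-ALL#2. In the transgenic mice the oncogenes Tal1 and Lmo2 are driven in thymocytes by the proximal Lck promoter. Cells excluding the dye 7-AAD were sorted after red cell lysis, so the libraries hold viable cells of the whole thymus. Each library is 1 animal, WT and preleukemic groups have 1 library each, and both leukemic mice were older, which means that the effects of age and leukemia cannot be told apart.

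V(D)J recombination assembles the T-cell receptor genes of each thymocyte from separate gene segments. RAG1 and RAG2 together form the endonuclease that cuts at the recombination signals beside the segments. The broken ends are then processed and joined by non-homologous end joining: the Ku70 (Xrcc6) and Ku80 (Xrcc5) heterodimer binds the ends, the kinase DNA-PKcs (Prkdc) activates the nuclease Artemis (Dclre1c) to open the hairpins, the polymerase TdT (Dntt) adds untemplated bases, and DNA ligase IV (Lig4) with XRCC4 (Xrcc4) seals them. In the thymus, RAG is known to be expressed in 2 waves, in CD4- CD8- double-negative 3 (DN3) cells that carry CD25 (Il2ra) and rearrange the β chain, and again in small resting CD4+ CD8+ double-positive cells that rearrange the α chain, with proliferation between them.

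Cells with over 500 genes and under 10% mitochondrial counts were kept, which left 4220 cells in WT, 5576 in the preleukemic thymus, 5773 in T-ALL#1 and 1975 in T-ALL#2. Summed unique molecular identifiers (UMIs, each a counted transcript) ran from 24042062 in WT to 70745712 in T-ALL#1, and the median per cell from 3800.5 in WT to 17581 in T-ALL#2. Tal1 had 0 UMIs in WT and 409.6, 68.3 and 234 CPM (UMIs of a gene per 1000000 UMIs of the library) in the preleukemic thymus, T-ALL#1 and T-ALL#2. Lmo2, the other transgene, was at 0.915 CPM in WT and at 4.48, 0.368 and 0.276 CPM in the same order. It was thus not seen above WT in the leukemias. WT and the preleukemic thymus are labelled male, but held Xist at 1380 and 1869 CPM and no UMI of the Y-linked gene Ddx3y, and so did not match their sex labels. T-ALL#1 held Xist at 1932 CPM and no Ddx3y, and T-ALL#2 held 0.083 CPM of Xist and 40.6 CPM of Ddx3y. By these genes T-ALL#2 alone was male, so its sex cannot be told apart from its other differences. All 7 thymocyte markers (Cd3d, Cd3e, Cd3g, Thy1, Lck, Ptprc, Cd2) were detected in every library, at 2990 to 5542 CPM in sum, against 5.55 to 19.2 CPM for 6 B-cell markers and 75.9 to 383 CPM for 7 myeloid markers. Pairs of libraries shared 0 to 9 cell barcodes.

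Rag1 (ENSMUSG00000061311, chr2:101638282-101649501, minus strand, GRCm38) and Rag2 (ENSMUSG00000032864, chr2:101624718-101632529, plus strand) are neighbours whose 3′ ends face each other across 5752 bases. A further annotated gene, B230118H07Rik, spans both. It shares 80 exonic bases with Rag1 on the same strand, 1.21% of its exonic length, where reads may not have been assigned to Rag1, and 208 with Rag2 on the opposite strand. Dntt lies at chr19:41029275-41059525. Dclre1c lies at chr2:3424131-3464130, Prkdc at chr16:15637866-15842235, Xrcc5 at chr1:72307421-72394952, Xrcc6 at chr15:81987835-82040085, Lig4 at chr8:9969049-9977686 and Xrcc4 at chr13:89774027-90089608. Exons of Dclre1c, Xrcc6 and Xrcc4 also share bases with an antisense neighbour (Suv39h2, Desi1 and Tmem167).

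The 250 bases before the RefSeq starts of Rag1, Rag2 and Dntt are shown. Rag1 and Rag2 had the largest differences of the set between libraries, and Dntt varied widely between cell states of WT. E-boxes (CANNTG), the motif bound by the E proteins encoded by Tcf3 and Tcf12, are in capitals. TAL1 is known to pair with E proteins. The sequences are 5′ to 3′ on the strand of the gene, from build GRCm38.p6, at chr2:101649533-101649782 (Rag1), chr2:101624462-101624711 (Rag2) and chr19:41029025-41029274 (Dntt).
Rag1: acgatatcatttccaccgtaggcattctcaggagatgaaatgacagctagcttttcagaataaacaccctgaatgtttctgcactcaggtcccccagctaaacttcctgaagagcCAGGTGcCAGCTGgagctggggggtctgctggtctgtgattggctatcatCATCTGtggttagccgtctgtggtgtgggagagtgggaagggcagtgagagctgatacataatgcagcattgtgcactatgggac
Rag2: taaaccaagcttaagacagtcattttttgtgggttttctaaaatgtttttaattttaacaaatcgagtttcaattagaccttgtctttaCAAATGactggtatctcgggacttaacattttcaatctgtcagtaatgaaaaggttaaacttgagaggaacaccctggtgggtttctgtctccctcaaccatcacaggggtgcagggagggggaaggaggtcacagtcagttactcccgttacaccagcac
Dntt: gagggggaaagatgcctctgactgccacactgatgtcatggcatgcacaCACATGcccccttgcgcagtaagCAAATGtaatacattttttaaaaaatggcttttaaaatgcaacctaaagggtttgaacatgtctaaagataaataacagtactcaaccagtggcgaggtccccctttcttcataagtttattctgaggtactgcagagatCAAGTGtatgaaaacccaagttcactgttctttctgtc
The Rag1 window held 3 E-boxes, starting 135, 128 and 85 bases before the start, the Rag2 window 1 and the Dntt window 3. On either strand, 66.2% of 32851 windows of this length hold an E-box, so these matches are common. The Rag1 window also held TGTGGT, a Runx motif, at 2 positions (14% of windows hold it), 1 of them overlapping the E-box nearest to the start. The GATA motif AGATAA was matched in the Dntt window (9.99% of windows) and in neither Rag window.

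Rag1 and Rag2 were highest in WT over all kept cells. The level of Rag1 was 475 CPM in WT (exact Poisson 95% interval 466 to 483), 112 CPM in the preleukemic thymus (108 to 115), 150.2 CPM in T-ALL#1 (147 to 153) and 26.3 CPM in T-ALL#2 (24.7 to 28.1). Rag2 was at 63.3 CPM in WT (60.1 to 66.5), 12.5 CPM in the preleukemic thymus (11.4 to 13.6), 5.12 CPM in T-ALL#1 (4.60 to 5.67) and 2.07 CPM in T-ALL#2 (1.63 to 2.59). The intervals cover counting error within a library and not the spread between animals, which 1 animal a group cannot show. No interval of either gene overlapped that of another library. Rag1 was thus lower than in WT by 4.25-fold in the preleukemic thymus, 3.16-fold in T-ALL#1 and 18.0-fold for T-ALL#2, and Rag2 was 5.07-fold, 12.4-fold and 30.6-fold lower.

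The 2 RAG genes did not differ in proportion. WT held 7.50 UMIs of Rag1 for each UMI of Rag2 (exact 95% interval 7.11 to 7.92) and the preleukemic thymus 8.94 (8.16 to 9.82). For the leukemias this ratio was 29.4 in T-ALL#1 (26.4 to 32.7) and 12.7 (10.1 to 16.3) in T-ALL#2. From the preleukemic thymus to T-ALL#1, the Rag1 level was 1.35-fold higher while the Rag2 level was 2.44-fold lower. In resting double-positive cells the ratio was 8.35 in WT (7.79 to 8.96) and 24.1 in T-ALL#1 (20.6 to 28.4), so it also differed within cells of the same gate.

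Dntt did not follow the RAG genes. Its level was 797 CPM in WT, 801 CPM in the preleukemic thymus, 773 CPM in T-ALL#1 and 345 CPM in T-ALL#2. WT and the preleukemic thymus had overlapping intervals (786 to 808 and 792 to 810), and T-ALL#2 was 2.31-fold below WT.

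Among the end joining genes, Xrcc6 differed most between libraries. Its level was 184.0 CPM in WT (179 to 190), 213 CPM in the preleukemic thymus (209 to 218), 811 CPM in T-ALL#1 (805 to 818) and 509 CPM in T-ALL#2 (502 to 517). Both leukemias were above WT, T-ALL#1 by 4.41-fold and T-ALL#2 by 2.77-fold. Its partner Xrcc5 was at 21.6, 24.5, 36.1 and 34.5 CPM in the order WT, preleukemic, T-ALL#1 and T-ALL#2, a smaller difference in the same direction. UMIs of Xrcc6 for each UMI of Xrcc5 numbered 8.52 in WT (7.78 to 9.35), 8.72 in the preleukemic thymus (8.16 to 9.32), 22.5 in T-ALL#1 (21.6 to 23.4) and 14.8 for T-ALL#2 (13.9 to 15.7).

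The Artemis gene Dclre1c was at 28.9 CPM in WT, 15.96 CPM in the preleukemic thymus, 13.2 CPM in T-ALL#1 and 7.59 CPM in T-ALL#2. Its order from WT to T-ALL#2 had no overlap between intervals. The ligase gene Lig4 was at 60.1, 58.6 and 50.3 CPM in WT, the preleukemic thymus and T-ALL#1, and at 13.7 CPM in T-ALL#2 (12.6 to 15.0). Its ligation partner Xrcc4 was at 34.1, 29.4, 20.2 and 11.8 CPM in the same order, and Prkdc at 23.7, 26.5, 19.6 and 15.4 CPM. Intervals of WT and the preleukemic thymus overlapped for Lig4, Prkdc and Xrcc5, and those of the leukemias for Xrcc5.

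**Figure D1:**
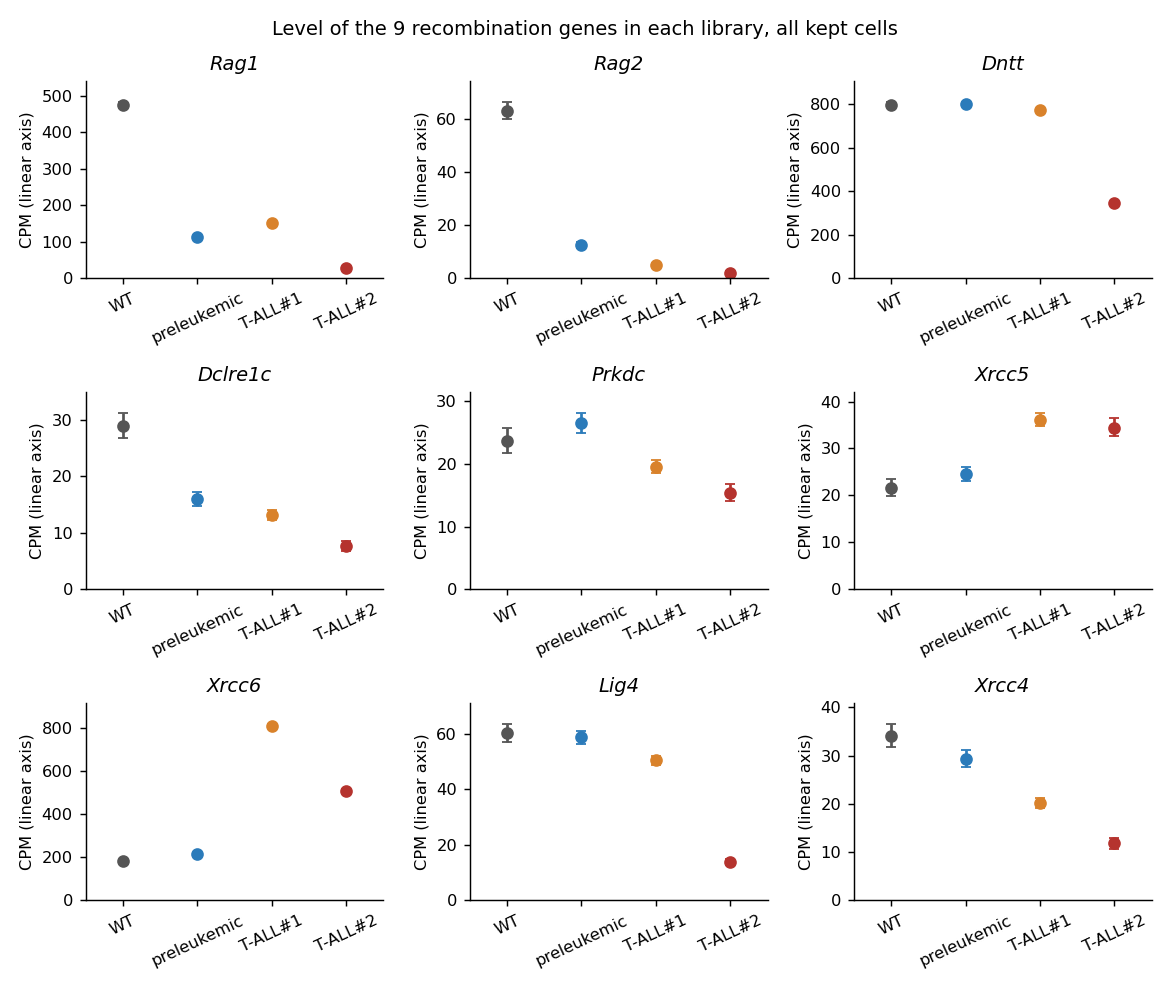
Levels of the 9 genes in each library, in CPM of UMIs summed over all kept cells, on linear axes from 0. Points are 1 library each and bars are exact Poisson 95% intervals. Rag1 and Rag2 are highest in WT, Dntt is near 800 CPM in all but T-ALL#2, and Xrcc6 is highest in the leukemias.

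With 1 animal a group, differences between libraries were counted without a test, as a CPM ratio of at least 2 among genes with at least 5 CPM in either library. Between the preleukemic thymus and WT, 2 of the 9 genes were past this fold, Rag1 and Rag2, both lower, where 5.89% of 9680 genes were lower and 5.13% higher. Against WT, both leukemias were past the fold in the same direction for 4 genes. Rag1, Rag2 and Dclre1c were lower, beside 13.7% of 9496 genes, and Xrcc6 was higher, beside 3.37%. Against the preleukemic thymus, Rag2 was lower in both leukemias, beside 12.1% of 9480 genes, and Xrcc6 higher, beside 2.83%. These comparisons share libraries and are not independent of each other.

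In T-ALL#2 alone, 6 of the 9 genes were at least 2-fold below WT, and the same 6 were at least 2-fold below the preleukemic thymus: Rag1, Rag2, Dntt, Dclre1c, Lig4 and Xrcc4. The background of lower genes was 31.7% and 28.5% of all genes in these comparisons, and the median gene of T-ALL#2 lay 0.55 below WT on the log2 scale, against 0.20 for T-ALL#1 and 0.02 for the preleukemic thymus. With TMM factors, which set these medians near 0, 4 of the 9 genes were past the fold below WT (Rag1, Rag2, Dclre1c and Lig4), beside 15.4% of all genes, and 3 below the preleukemic thymus (Rag1, Rag2 and Lig4), beside 14.4%. Dntt (ratios of 0.632 and 0.614) and Xrcc4 (0.506 and 0.572) dropped out of both counts, and Dclre1c (0.677) out of the latter. With these factors Dclre1c in T-ALL#1 against WT was no longer past the fold (ratio 0.546), and Xrcc5 passed it in both leukemias (2.00 and 2.33).

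T-ALL#2 was deposited with every barcode, which allowed free RNA to be measured there. The 1187985 shallowest barcodes with a UMI, far below the cell limit, held 1814932 UMIs. In them Rag1 was at 15.98 CPM, Dntt at 228 CPM and Xrcc6 at 431 CPM, compared with 26.3, 345 and 509 CPM in cells. Of the 9 genes only Prkdc was higher in these barcodes than in cells, at 20.4 against 15.4 CPM. Rag2 had 3 UMIs in these barcodes, or 1.65 CPM, against 2.07 CPM in cells, and Dclre1c was at 6.06 against 7.59 CPM. The part of free RNA in the levels of T-ALL#2 cells was not tested. Cells with at least 3 UMIs of B-cell and myeloid genes and none of the CD3 genes, which should lack RAG, numbered 5 in WT and 6 to 11 elsewhere, and had 0 UMIs of Rag1 and of Rag2. With so few cells, 0 of 5 in WT allows a share of up to 52.2% (exact Clopper-Pearson 95% upper limit).

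Shares of cells with a UMI depend on depth, so all cells were also thinned to 2000 UMIs, which left out 991, 350, 94 and 0 shallower cells. A UMI of Rag1 was found in 54.3% of the cells from WT, 25.9% from the preleukemic thymus, 61.7% from T-ALL#1 and 26.3% from T-ALL#2. After thinning these shares were 37.5% (35.9 to 39.2), 12.9% (11.96 to 13.8), 33.1% (31.9 to 34.4) and 5.62% (4.65 to 6.73). At equal depth T-ALL#1 was thus below WT, as in CPM, where the unthinned shares had the opposite order. Rag2 was found in 13.2%, 1.86%, 2.43% and 0.760% of thinned cells. Xrcc6 was found in 24.7% and 24.6% of thinned WT and preleukemic cells, against 73.6% in T-ALL#1 and 58.9% in T-ALL#2.

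Recombination needs both RAG genes in the same cell. UMIs of both were found in 20.8% of the cells from WT (19.6 to 22.1), 5.06% from the preleukemic thymus (4.50 to 5.67), 4.49% from T-ALL#1 (3.97 to 5.05) and 1.67% from T-ALL#2 (1.15 to 2.34). After thinning to 2000 UMIs these shares were 12.4%, 0.880%, 1.602% and 0.0506%, the last being 1 cell of 1975. Among resting double-positive cells, as defined in the next comparison, 33.2% of WT cells had both (30.8 to 35.5), against 12.2% in the preleukemic thymus (6.82 to 19.6), 8.27% in T-ALL#1 (6.92 to 9.78) and 1 of 117 cells in T-ALL#2. With the gates set anew on thinned cells these shares were 33.0% in WT, 4.92% in the preleukemic thymus and 3.29% in T-ALL#1, and 0 of 36 cells in T-ALL#2, which allows a share of up to 9.74%.

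**Figure D2:**
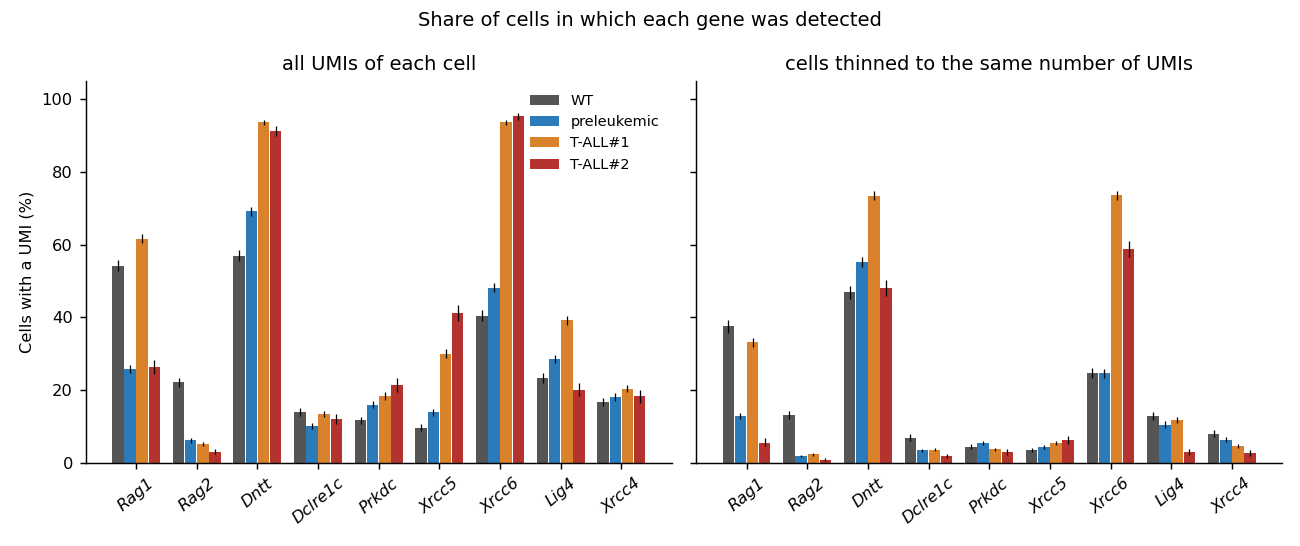
Percentage of kept cells with at least 1 UMI of each gene, in all UMIs (left) and after thinning each cell to 2000 UMIs (right). Bars are libraries and error bars exact Clopper-Pearson 95% intervals. For Rag1, T-ALL#1 stands above WT on the left and below it on the right.

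To separate the level in a cell state from the share of that state, cells were divided by detected UMIs of Cd4, Cd8a and Il2ra, and called cycling when they held a UMI of Mki67 or Top2a, which mark proliferating cells. Resting double-positive cells, with UMIs of Cd4 and Cd8a and none of Mki67 and Top2a, numbered 1593 in WT, 115 in the preleukemic thymus, 1488 in T-ALL#1 and 117 in T-ALL#2. Of the preleukemic cells, 63.1% had no UMI of Cd4, Cd8a or Il2ra, compared with 9.12% in WT. Cd4 was at 9.52 CPM there, against 342 CPM in WT, so a detection gate for double-positive cells found few. In T-ALL#2 Cd4 was at 13.8 CPM, beside 10.47 CPM in its shallowest barcodes.

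Within resting double-positive cells the RAG differences between libraries remained. Rag1 was at 1568 CPM in WT (1533 to 1604), 435 CPM in the preleukemic thymus (385 to 490), 489 CPM in T-ALL#1 (474 to 505) and 68.6 CPM in T-ALL#2 (53.7 to 86.2). Rag2 was at 188 CPM in WT, 38.4 CPM in the preleukemic thymus (24.6 to 57.2) and 20.3 CPM in T-ALL#1 (17.3 to 23.7). In T-ALL#2 it had 2 UMIs, or 1.88 CPM (0.228 to 6.78). Rag1 was 3.6-fold, 3.2-fold and 22.9-fold below WT, folds close to those over all cells. The Rag1 intervals of preleukemic and T-ALL#1 cells overlapped, so their order in this gate was not resolved, while those of Rag2 did not overlap.

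Past the fold in these cells, the preleukemic thymus was lower than WT for 3 of the 9 genes (Rag1, Rag2 and Dclre1c) and higher for none, beside 11.6% and 6.67% of 9516 genes. Both leukemias were lower than WT for the same 3 genes (12.7% of 9416 genes) and higher for Xrcc6 (4.85%). Against the preleukemic thymus both leukemias were higher for Xrcc6 (5.47% of 9169 genes) and lower for none of the 9 (10.5%). In resting cells with Il2ra alone, of which WT had 34, other members passed: both leukemias were below WT for Rag2, Dntt and Prkdc (19.1% of 9701 genes) and above it for none (5.97%). The Rag2 and Prkdc ratios rest on few counts: 12 UMIs of each in WT, 4 and 18 in T-ALL#1, and 5 and 27 in T-ALL#2. Rag1 in T-ALL#1 was there at 0.573 of WT, and Xrcc6 in T-ALL#2 at 1.7 times WT. In resting double-positive cells Xrcc6 was at 269 CPM in WT and 275 CPM in the preleukemic thymus, against 994 and 555 CPM in the leukemias.

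The Xrcc6 difference was not limited to that gate. Among cells that were not cycling, WT held 35.4 CPM in cells with Cd4 alone and 41.2 CPM in cells with none of the gate genes, compared with 266 CPM with Il2ra alone and 269 CPM in double-positive cells. Over the same 5 gates the preleukemic thymus ran from 118 to 275 CPM, T-ALL#1 from 299 to 994 CPM and T-ALL#2 from 329 to 555 CPM. In each gate both leukemias were above WT, and the intervals of the leukemias did not reach that of WT.

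The spread of Dntt over cell states was wide in WT and narrow in the other libraries. Among WT cells that were not cycling, Dntt was at 1828 CPM in cells with Il2ra alone (34 cells), 1191 CPM in double-positive cells, 311 CPM in cells with Cd8a alone, 77.8 CPM in cells with Cd4 alone and 69.3 CPM in cells with none of these genes. In the preleukemic thymus the same 5 gates ran from 606 to 1188 CPM, in T-ALL#1 from 730 to 1014 CPM and in T-ALL#2 from 301 to 440 CPM. Cells with Cd4 alone, mostly mature in a normal thymus, held Dntt at 674 CPM in the preleukemic thymus (30 cells), 911 CPM in T-ALL#1 and 364 CPM for T-ALL#2. This gate need not hold the same cells in each library. Among its thinned resting cells Rag1 was found in 8.70% in WT, 11.8% in the preleukemic thymus, 49% in T-ALL#1 and 11.9% in T-ALL#2. Whether the gate holds mature cells outside WT was not tested. In cells with a UMI of Ccr7 or S1pr1, read here as markers of mature thymocytes, Dntt was at 144 CPM in WT and 484 CPM in the preleukemic thymus. It was at 555 CPM in T-ALL#1 and 248 CPM for T-ALL#2.

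Rag1 kept its peak in resting double-positive cells in all 4 libraries. Among cells that were not cycling it ran from 77.5 CPM in WT cells with no UMI of the 3 gate genes to 1568 CPM, from 52.3 to 435 CPM in the preleukemic thymus, from 40.1 to 489 CPM in T-ALL#1 and from 21.1 to 68.6 CPM in T-ALL#2. In WT cells with a UMI of Ccr7 or S1pr1 it was at 61.3 CPM and in T-ALL#1 cells of that kind at 49.2 CPM. Of the resting double-positive cells of T-ALL#1, 1172 also had a UMI of Il2ra, the DN3 gene, and Rag1 was at 513 CPM in them and at 394 CPM in the other 316. In WT, 21 such cells had Il2ra.

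**Figure D3:**
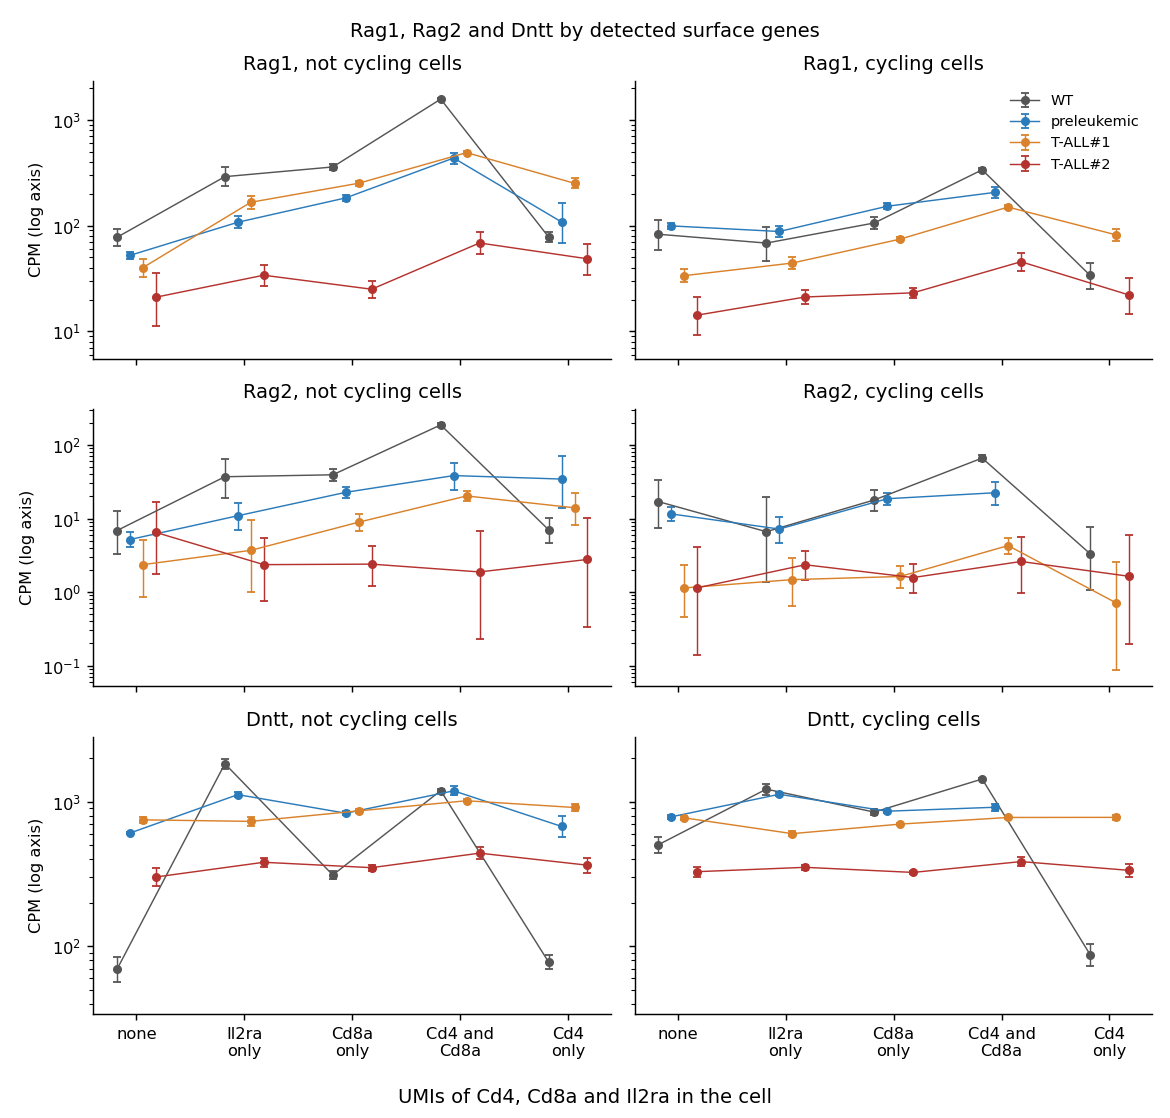
Levels of Rag1, Rag2 and Dntt in CPM on log axes, by UMIs of Cd4, Cd8a and Il2ra, in cells that were not cycling (left) and cycling (right). Points are sums over the cells of 1 library with exact Poisson 95% intervals, and strata under 20 cells or without a UMI are left out. Rag1 peaks in cells with Cd4 and Cd8a in every library, while Dntt varies between gates mainly in WT.

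The stage comparison set resting double-positive cells against resting cells with Il2ra alone, within each library. This Il2ra gate stood for DN3 but did not leave out cells with UMIs of Cd44 or Cd8b1. Rag1 and Rag2 were higher in double-positive cells. Rag1 was at 1568 against 290.2 CPM in WT, 435 against 108 CPM in the preleukemic thymus, 489 against 166 CPM in T-ALL#1 and 68.6 against 34.0 CPM in T-ALL#2. It was higher in double-positive cells of all 4 libraries, with a log2 fold change of 1.67 ± 0.21 (SE, 4 libraries) and an adjusted p of 0.00738 by the quasi-likelihood test of edgeR with the library as a block. Rag2 was higher by 1.84 ± 0.30 (adjusted p = 0.0102), in 3 of the 4 libraries, with 2 and 5 UMIs in T-ALL#2. Dclre1c was higher by 0.94 ± 0.23 (adjusted p = 0.0363) in 4 of 4 libraries.

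These 3 genes were those of the 9 that passed, all higher in double-positive cells, beside 2.16% of 8702 genes that were higher and 3.19% that were lower. Of the genes called, 40.3% were higher, against 70% when library totals replaced TMM. Lig4 (0.41 ± 0.18) and Xrcc4 (0.50 ± 0.23) had positive estimates that did not pass (adjusted p = 0.187 and 0.202), as did Xrcc6 (0.26, adjusted p = 0.311), while Prkdc (-0.37), Xrcc5 (-0.51) and Dntt (-0.08) had negative ones. Without the preleukemic thymus none of the 3 passed (adjusted p = 0.0678 for Rag1, 0.0838 for Rag2 and 0.152 for Dclre1c), and that fit called 7 of 8619 genes, with 1571 at an unadjusted p under 0.05. Without WT, Rag1 and Rag2 passed (adjusted p = 8.69e-04 and 0.0283). The call of Dclre1c also needed each other library (adjusted p = 0.0597 to 0.116 with WT or either leukemia left out), and its estimate was 0.30 on thinned cells (adjusted p = 0.741), where Rag1 had 1.87 (adjusted p = 0.0521). With mitochondrial UMIs under 5%, Dclre1c was at 0.22 (adjusted p = 0.794) and Lig4 passed instead (0.93, adjusted p = 0.0338), and without Il2ra in the double-positive gate Dclre1c did not pass (adjusted p = 0.0850). None of the 9 passed without the library block. The Il2ra gate held 34 WT cells and 149 to 270 cells elsewhere, and its median depth was above that of double-positive cells in each. Leaving out its cells with Cd44 or Cd8b1 left 27 in WT and 201 in the preleukemic thymus. T-ALL#1 kept 39 of 149 cells and T-ALL#2 kept 54 of 150, so most leukemic cells of the gate held 1 of these genes. With the stricter gate Rag1 (2.28, adjusted p = 1.985e-05), Rag2 (2.28, adjusted p = 0.00362) and Dclre1c (0.97, adjusted p = 0.0372) passed.

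The direction of Dntt between stages differed from library to library. It was at 1191 CPM in double-positive against 1828 CPM in Il2ra cells of WT, but at 1014 against 730 CPM in T-ALL#1 and 440 against 381 CPM in T-ALL#2. The log2 ratio was -0.62 in WT (exact 95% interval up to -0.49), 0.47 for T-ALL#1 and 0.21 for T-ALL#2. The preleukemic thymus, at 1188 against 1118 CPM, had an interval that held 0.

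Cycling cells were compared with the other cells of their library in the same way. Over all kept cells, 4 of the 9 genes passed. Xrcc5 and Xrcc6, the Ku subunits, were higher in cycling cells, by 0.57 ± 0.12 and 0.63 ± 0.18 on the log2 scale (adjusted p = 0.00584 and 0.0205, edgeR), each in 4 of 4 libraries. The Xrcc6 log2 ratio was 0.83 in WT and 0.81 in the preleukemic thymus, but 0.08 in T-ALL#1 and 0.12 in T-ALL#2. Xrcc6 was not called without WT (adjusted p = 0.0803) or without the preleukemic thymus (adjusted p = 0.0854). Dclre1c was lower, with a log2 fold change of -1.01 ± 0.11 (adjusted p = 5.83e-04), and so was Xrcc4, with -0.36 ± 0.09 (adjusted p = 0.0114), each in 4 of 4 libraries. Of 11856 genes tested, 26.1% were higher and 26.6% lower in cycling cells, so 2 of 9 in each direction is near the background. Of the genes called, 49.6% were higher, against 34.5% when library totals replaced TMM, and without the library block none of the 9 passed.

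Rag1 did not pass over all cells in edgeR (-0.76 ± 0.37, adjusted p = 0.125) but did in DESeq2 on the same sums (-0.78, adjusted p = 0.0294), and its direction differed between libraries. It was at 228 CPM in cycling against 675 CPM in other cells of WT, 88.0 against 318 CPM in T-ALL#1 and 23.8 against 33.8 CPM in T-ALL#2, but at 124 against 102 CPM in the preleukemic thymus. Without the preleukemic thymus Rag1 passed in edgeR (-1.20, adjusted p = 0.0131). Rag2 (-0.72 ± 0.44, adjusted p = 0.213), Dntt (0.37 ± 0.21, adjusted p = 0.188), Prkdc (0.14) and Lig4 (-0.23) did not pass either, though Lig4 passed without T-ALL#2 (-0.34, adjusted p = 0.0441) and with library totals in place of TMM (-0.41, adjusted p = 0.0261). Cycling cells were deeper, with medians of 9866.5 against 3280 UMIs in WT and 12890 against 4316 UMIs in the preleukemic thymus. After thinning to 2000 UMIs, Dclre1c and Xrcc6 alone passed (adjusted p of 0.0898 for Xrcc5 and 0.0529 for Xrcc4).

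Among double-positive cells, Rag1 was lower in cycling than in resting cells of every library. With Cd4 and Cd8a detected, cycling cells of WT held 337 CPM against 1568 CPM in resting cells, those of the preleukemic thymus 206 against 435 CPM, those of T-ALL#1 149.7 against 489 CPM and those of T-ALL#2 45.6 against 68.6 CPM. The log2 fold change was -1.31 (adjusted p = 8.63e-04, edgeR). Rag2 was also lower (-1.35, adjusted p = 8.02e-04), in 3 of 4 libraries, with 6 and 2 UMIs in T-ALL#2. In all, 5 of the 9 genes were lower in cycling double-positive cells (Rag1, Rag2, Dclre1c, Lig4 and Xrcc4), beside 25.5% of 9751 genes, and Xrcc5 was higher, also beside 25.5%. The Xrcc5 estimate was 0.44, but its CPM was higher in cycling cells in 3 of the 4 libraries, the preleukemic thymus having 18.1 against 24.0 CPM. Xrcc6 did not pass there (0.31, adjusted p = 0.0519), nor did Dntt (-0.0015, adjusted p = 0.995).

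Among cells with Il2ra alone, Rag1 (-1.06, adjusted p = 0.0309), Dclre1c (-0.81, adjusted p = 0.0133) and Lig4 (-0.50, adjusted p = 0.0228) were lower in cycling cells, where 16.5% of 8993 genes were lower. Xrcc5 was higher (0.49, adjusted p = 0.0361), where 18.4% of genes were higher. The WT sums of this gate rest on 20 cycling and 34 other cells. In gates that were not tested Rag1 was not always lower in cycling cells: preleukemic cells with none of the gate genes held 99.4 CPM when cycling (92.1 to 107) against 52.3 CPM when not (48.6 to 56.3), and WT cells of that kind 82.9 against 77.5 CPM with overlapping intervals. Dclre1c and Xrcc5 thus passed in the same direction over all cells and in both gates.

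**Figure D4:**
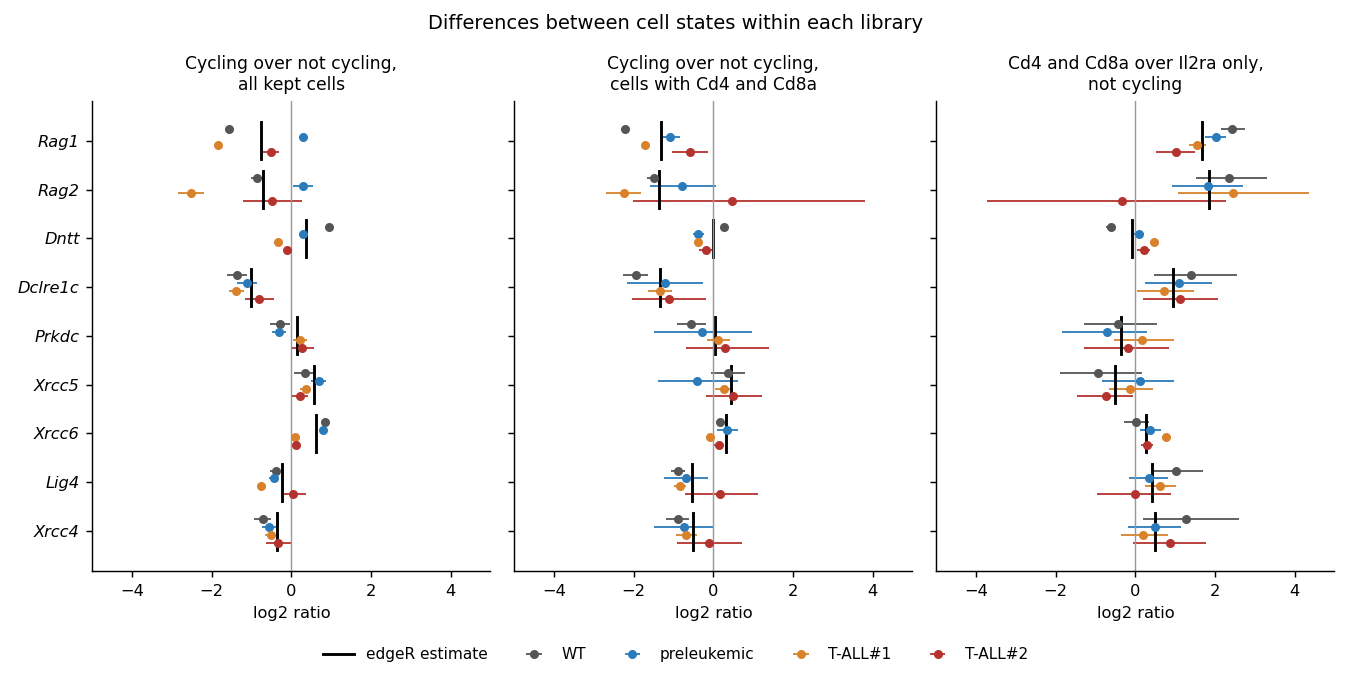
Log2 ratios of the 9 genes between cell states within each library: cycling over other cells among all kept cells (left) and among cells with Cd4 and Cd8a (middle), and resting cells with Cd4 and Cd8a over resting cells with Il2ra alone (right). Points are libraries with exact conditional 95% intervals and black lines are the edgeR estimates over 4 libraries. Rag1 lies left of 0 in 3 libraries in the left panel and in all 4 in the middle panel.

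Other genes of these pathways were read as lists. Of 9 cofactors and turnover factors of RAG in the tables, 8 were higher in cycling cells and Cul4a did not pass (list median log2 of 1.43, against -0.04 over all genes, of which 26.1% were higher). The largest changes were those of Ccna2 (5.46), Ccne1 (3.23), Hmgb2 (3.12) and Skp2 (2.14). Ccna2 and Skp2 encode cyclin A2 and an adaptor of the ubiquitin ligase known to mark RAG2 protein for degradation as cells enter S phase. HMGB2 is a DNA bending protein that aids RAG binding. Several of these genes are themselves cell cycle genes.

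Of 10 break sensing genes, 8 were higher in cycling cells, beside 26.1% of all genes (list median 0.87), led by H2afx (2.23), Rif1 (1.48), Nbn (1.26) and Rnf168 (1.15). H2afx encodes the histone variant phosphorylated beside breaks, and NBN is a part of the MRN complex that senses them. Of 5 genes of alternative end joining, a backup route for breaks, Lig1 (3.06), Polq (2.91), Xrcc1 (1.00) and Parp1 (0.74) were higher, again beside 26.1% of all genes, and Lig3 did not pass. Of 7 further genes of classical end joining, Aplf was higher (0.68) and Paxx lower (-0.60), beside 26.1% and 26.6% of all genes. The other 5 did not pass.

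Of 16 transcription factors known to bind or control the Rag locus, 6 were lower in cycling cells, beside 26.6% of all genes, and none higher (list median -0.30). The largest were Foxo1 (-1.11), Foxp1 (-0.80), Satb1 (-0.70) and Bcl11b (-0.61). FOXO1 is an activator of Rag transcription and SATB1 a chromatin organizer of the locus in thymocytes. In the stage comparison 4 of the 16 were higher in double-positive cells, among them Foxo1 (0.96), Tcf7 (0.67) and Ets1 (0.55), and none was lower. Of all 8702 genes tested there, 2.16% were higher and 3.19% lower. No gene of the other 4 lists passed there, where few genes were called at all.

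Between libraries, Satb1 (643 against 1976 CPM) and Foxo1 (15.98 against 61.6 CPM) were among the factors past the fold below WT in the preleukemic thymus, and Runx1 and Myb were above it (303 against 151 CPM and 580.2 against 251 CPM). In both leukemias Foxo1 and Satb1 were past the fold below WT. Within resting double-positive cells Satb1 was at 3387 CPM in WT, against 1909, 1372 and 577 CPM in the preleukemic thymus and the leukemias, while Foxo1 was at 62.3 CPM against 24.0, 68.4 and 47.0 CPM.

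The genes most like each of Rag1, Rag2 and Dntt were found by Pearson's r of log2(CPM + 1) over 35 strata of library, gate and cycling, among 9166 genes with a mean of at least 5 CPM. Strata of a library share its cells' depth and animal, so r is a description. Rag1 was most like Zfp280d (r = 0.930), Nfatc3 (0.925), Fbxl12 (0.914), Ifngr1 (0.913) and Rmnd5a (0.910). Rag2 was most like Rmnd5a (0.921), Wdr78 (0.904), Tctex1d1 (0.902), Cdk20 (0.901) and Mier1 (0.900). Dntt was most like Arpp21 (0.899), Cd24a (0.886), Lrmp (0.884), Aqp11 (0.852) and Cbfa2t3 (0.844). Among the 9 genes, Rag1 was most like Rag2 (0.853), Lig4 (0.834) and Dclre1c (0.808), and least like Xrcc5 (-0.483).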

How the data were processed

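Single-cell 3′ libraries of thymocytes (10x Genomics) were used as deposited: the authors' matrices hold counts, that is UMIs per gene and barcode without normalization, made with Cell Ranger on mm10 per the submitters' processing notes. Which version of the 3′ kit made which library is not assigned in the labels, so chemistry and depth cannot be told apart between libraries. T-ALL#2 was deposited with all barcodes, and barcodes with at least 3416 UMIs were taken as cells. Cells with over 500 genes and under 10% mitochondrial UMIs were kept, with no doublet caller; an upper limit on genes (mean plus 3 SD) was an alternative.

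The genes and lists were chosen with earlier results of these data known. Genes named from lists were the 4 with the largest absolute log2 change among those past the threshold, and for likeness the 5 highest r. Values of 1 listed gene are not reported here. Total UMIs per library are given with the results. CPM carry exact Poisson and shares exact Clopper-Pearson 95% intervals, for counting error only. UMIs of a library were summed over each state, giving 8 sums a comparison, and tested with edgeR 4.0.16 in R 4.3.3 (quasi-likelihood, robust, TMM, filterByExpr, Benjamini-Hochberg, threshold 0.05). Both sums of a library come from 1 animal, which pairs them, so the library was a block. Genes that make a gate were left out. The fit was tested on simulated data. DESeq2 1.42.0, other filters and libraries left out in turn were alternatives. Positions are from GENCODE M21 (30934 of 31053 identifiers matched, all 9 members among them) and sequences from RefSeq (8 of 9 members matched, without Prkdc).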

Additional observations from a re-analysis of the deposited data

Results flagged for a closer look

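Over all kept cells, the cycling comparison went in opposite directions in different groups for 3 genes, with counting intervals that excluded 0 in each library named; the difference between groups was not tested, since WT and preleukemic groups hold 1 library each. For Rag1 the log2 ratio of cycling over other cells was 0.28 in the preleukemic thymus, against -1.57 in WT, -1.85 for T-ALL#1 and -0.51 for T-ALL#2. For Rag2 it was 0.29 in the preleukemic thymus and -0.86 in WT. For Dntt it was 0.94 in WT and 0.28 in the preleukemic thymus, against -0.32 for T-ALL#1 and -0.11 for T-ALL#2. These directions were not all kept within the tested gates (Cd4 and Cd8a, then Il2ra alone). Preleukemic Rag1 was at -1.08 and -0.29 there, though it was positive in cells with none of the gate genes. Preleukemic Rag2 was at -0.78 and -0.60, with intervals that held 0. Dntt was at 0.27 and -0.58 in WT, -0.38 and 0.01 in the preleukemic thymus, and below 0 in both leukemias. In the stage comparison Dntt was again split, at -0.62 in WT, 0.47 in T-ALL#1 and 0.21 for T-ALL#2.

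The shallowest barcodes of T-ALL#2, far below the cell limit and used in no comparison, held UMIs of 8 of the 9 genes above the level that 3 counts give (1.65 CPM). The levels there were 15.98 CPM for Rag1, 228 CPM for Dntt, 6.06 CPM for Dclre1c, 20.4 CPM for Prkdc, 18.7 CPM for Xrcc5, 431 CPM for Xrcc6, 9.92 CPM for Lig4 and 7.16 CPM for Xrcc4.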

How the results depend on the processing

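Of 73 recomputed group results, 58 stayed within 1.5 times the reported count or within its interval. Counts were compared without regard to which genes they held. Within resting Il2ra cells both leukemias passed the fold against WT for Rag2, Dntt and Prkdc, with 12 UMIs each of Rag2 and Prkdc in WT. Over all cells they passed for Rag1, Rag2, Dclre1c and Xrcc6. Preleukemic over WT could not change with a lower UMI limit for T-ALL#2, which it does not use. Without the replicate block, which leaves the difference between animals in the error, edgeR called 0 members in either comparison (922 genes over the table for cycling and 0 for stage, with 2760 and 768 at an unadjusted p under 0.05). After thinning to 2000 UMIs, 2 members were called for cycling and 0 for stage, on fewer genes tested. Leaving out 1 library gave 3 to 5 members for cycling and 0 to 2 for stage, the 0 without the preleukemic thymus. Gene counts moved by over 1.5 times for cycling with thinning (3815 genes against 6242) and within Il2ra cells (3141), and for stage (466 genes) with every detected gene tested (1255), without the preleukemic thymus (7) or T-ALL#2 (138), with thinning (180) and with mitochondrial UMIs under 5% (265). Library totals in place of TMM shifted the median gene to -0.22 (cycling) and 0.12 (stage) on the log2 scale and moved the share of called genes that were higher from 49.6% to 34.5% and from 40.3% to 70%, with 5 and 3 members called. Members past the fold between both leukemias and the preleukemic thymus numbered 1 by the mean over cells and 1 within resting double-positive cells, and 2 to 7 with 1 leukemia left out. Against WT they numbered 4 to 7, where 7 is T-ALL#2 alone. Thinning moved the share of cells with both RAG genes to 12.4%, 0.880%, 1.602% and 0.0506%, and a mitochondrial limit of 5% to 23.4% in WT and 4.11% in the preleukemic thymus. Directions turned for 2 members, none of them called. Dntt for cycling was at -0.0015 within double-positive and -0.16 within Il2ra cells, and for stage at 0.038 with library totals, 0.16 without WT (-0.21 without T-ALL#1), 0.13 after thinning and 0.014 with the 5% limit. Prkdc for cycling was at -0.032 with library totals and -0.16 after thinning. The cause of these moves was not tested.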

Other observations

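The constant genes of the T-cell receptor, which are transcribed from germline as well as rearranged loci, were read after their values were seen. Trbc1 was at 2671 CPM in WT, 2995 CPM in the preleukemic thymus and 1121 CPM in T-ALL#1, but at 0.662 CPM in T-ALL#2, where Trbc2 was at 3491 CPM. Trac, the constant gene of the α chain, was at 636 CPM in WT, 178 CPM in the preleukemic thymus, 275 CPM in T-ALL#1 and 129.6 CPM in T-ALL#2.

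In the preleukemic thymus, resting cells with a UMI of Tal1 (3398 cells) held Rag1 at 112 CPM and Dntt at 773 CPM, against 41.7 and 478 CPM in the 853 without one. The cells with Tal1 were also deeper, with a median of 4573.5 against 3465 UMIs. In T-ALL#1 the order for Rag1 was the opposite, at 256 CPM in cells with Tal1 and 364 CPM in cells without (medians of 5921 and 4431 UMIs). In T-ALL#2 it was at 36.0 CPM in 656 cells with Tal1 and 15.4 CPM in 97 without (11630 and 8052 UMIs).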
